A study of Mus musculus with 12 samples.

Results

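The Mir470 to Mir881 cluster is a group of miRNA genes on the mouse X chromosome that is expressed in testis and carries 8 of the 1573 annotated miRNAs in the deposited table. The 8 members (Mir470, Mir871, Mir881, Mir878, Mir880, Mir463, Mir741 and Mir743) were chosen by name, with their levels in these knockouts already known. Their levels across the genotypes are therefore given as a description, and the limma differences and calls printed for them are no independent test. No level threshold was part of the choice, and all 8 were in the table.

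Small RNAs of 20 to 24 nt were sequenced from mouse embryonic stem cells (ESCs), pluripotent cells of the early embryo, in 12 libraries labelled as E14 cells. There were 6 wild-type libraries (WT, labelled Wildtype, 3 cultures with libraries A and B each, of which culture 2 is titled E14 2), 2 Dnmt1 KO libraries (Dnmt1 -/-, 1 culture, A and B) and 4 Dicer/Dnmt1 KO libraries (Dicer/Dnmt1 -/-, 2 cultures, A and B each). No label names a culture. Each number in the titles is taken here as 1 culture, and the unnumbered Dnmt1 KO A and B as 1 culture, which the labels do not settle. Both knockout groups lack Dnmt1, and the double knockout also lacks Dicer. The design asks how small RNAs respond to the loss of DNMT1 and how far they depend on DICER. The labels give no time after deletion. The study's methods start from a Dnmt1 loxP/loxP ESC line of strain C57BL/6. They describe the double knockout as conditional, in a line made from that line with CRISPR/Cas9. Cre was induced by 4OHT (tamoxifen) to delete the floxed genes. The paper also made a line with a constitutive Dicer knockout and floxed Dnmt1, and the labels do not say which line was sequenced here. The paper names uninduced ESCs with floxed Dicer and Dnmt1 as the WT for its small RNA data, whereas the labels call every library E14, and they do not give the line of each WT culture. A part of cell line in the comparisons with WT was not tested. A and B may be technical replicates, and the 2 Dnmt1 KO libraries are taken as 1 culture, so errors here measure the spread between libraries only.

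DNMT1 copies CpG methylation onto the new DNA strand at replication, and its loss in ESCs demethylates the genome passively. miRNAs are cut from hairpin precursors, first by DROSHA and DGCR8 in the nucleus and then by DICER in the cytoplasm, and they pair with target mRNAs mainly through the seed, bases 2 to 8. The X-linked cluster described here belongs to a fast-evolving group of rodent miRNAs best known from male germ cells.

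All 8 members lie on the minus strand of chromosome X within 37269 bases (NCBIM37, chrX:64029932-64067200). Read in the direction of transcription, Mir470 (chrX:64067126-64067200) is the most upstream. Mir871 (chrX:64063603-64063679) follows 3.52 kb further on. Mir881 (chrX:64055119-64055196), Mir878 (chrX:64054683-64054760), Mir880 (chrX:64053705-64053782), Mir463 (chrX:64052398-64052472) and Mir741 (chrX:64049980-64050050) come next, the last of them 17.2 kb downstream of Mir470. Mir743 (chrX:64029932-64029993) is the most distant, 37.2 kb downstream. No member overlapped another annotated feature of the table. The nearest protein-coding genes were Slitrk2, a synaptic adhesion protein gene 115 kb downstream of the cluster, and Gm1140, 869 kb upstream, so the members are intergenic in this annotation. The hairpin sequences of 8 of 8 members matched the NCBIM37 genome once, at exactly the interval of the table.

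The mature sequences are shown for the 4 members with the most reads, because these carry nearly all of the signal, with the seed in capitals. They were taken from RefSeq (GRCm38.p6), which held both arms of all 8 members.
mmu-miR-470-5p: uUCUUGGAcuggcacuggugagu
mmu-miR-470-3p: aACCAGUAccuuucugagaaga
mmu-miR-871-5p: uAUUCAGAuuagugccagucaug
mmu-miR-871-3p: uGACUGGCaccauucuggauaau
mmu-miR-881-5p: cAGAGAGAuaacagucacaucu
mmu-miR-881-3p: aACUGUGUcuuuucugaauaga
mmu-miR-878-5p: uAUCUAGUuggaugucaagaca
mmu-miR-878-3p: gCAUGACAccacacuggguaga
The table counted reads over the whole hairpin, so the reads of the 2 arms cannot be told apart.

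All 16 arms of the 8 members matched the genome exactly once, so a read covering a whole arm has no second perfect position. The 16 arms carried 15 different seeds. The one shared seed joined miR-871-5p to the 5p arm of Mir743, which is shown for comparison.
mmu-miR-743a-5p: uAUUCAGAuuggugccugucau
Both seeds read AUUCAGA, and no other mature miRNA of the RefSeq table carried it. The seed of miR-871-3p is also part of a stretch of 9 bases, GACUGGCAC, that starts at base 2 of miR-871-3p and at base 7 of miR-470-5p, so that it covers the seed of the former but only the last bases of the seed of the latter. The arm ends were alike across members. Of the 8 5p arms, 6 began with UA, against 10.5% of the 697 5p arms in the RefSeq table, and 6 of 8 3p arms ended with AGA, against 3.10% of 709 3p arms. Both shares include this locus, and the ends were not particular to the members. Among other miRNAs of the locus, miR-743b-3p and miR-465a-3p also ended with AGA, and miR-742-5p and miR-471-5p began with UA. Others, such as both arms of miR-883a, did not have these ends.

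The table held log2 RPM (reads relative to each library's size), from which whole reads were recovered. Depth was low, at 8710 to 245184 reads per library, and a single read weighed from 4.08 RPM (WT 1A) to 115 RPM (Dicer/Dnmt1 KO 1B). Up to 3 reads are compatible with a count of 0, or 12.2 to 344 RPM. The ESC label was checked against the Mir290 to Mir295 cluster, the main miRNAs of undifferentiated ESCs, and against Mir302a to Mir302d. The Mir290 to Mir295 cluster held 28125 to 91543 RPM in WT, 55619 to 99190 RPM in Dnmt1 KO and 1201 to 3471 RPM in Dicer/Dnmt1 KO. Mir302a, Mir302b and Mir302d were lower in Dnmt1 KO than in WT. Their log2 differences were -2.18 ± 0.77, -1.78 ± 1.12 and -1.56 ± 0.755 (SE, limma), none past an adjusted p of 0.05. Mir302c had 21 reads over the 12 libraries, 0 of them in Dnmt1 KO, and was not tested. All annotated miRNAs together held a pooled 375681 RPM in WT, 636084 RPM in Dnmt1 KO and 81050 RPM in Dicer/Dnmt1 KO. Reads inside the targeted genes Dnmt1 and Dicer1 were too few (0 to 18 per library) to check the deletions.

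Summed over the 8 members, the cluster was high in Dnmt1 KO and near the detection limit in WT. Dnmt1 KO A held 94 reads and B 158 reads, or 1389 and 1468 RPM. The 6 WT libraries held 6, 1, 1, 1, 1 and 0 reads (1A, 1B, 2A, 2B, 3A, 3B), with a median of 10.5 RPM and a highest value of 62.0 RPM that came from a single read of the shallow library 2A. In the double knockout, 1A held 4 reads, 1B none, 2A 11 and 2B 13, or 163, 0, 173 and 86.3 RPM. The Dnmt1 KO libraries lay above every other library, while WT and Dicer/Dnmt1 KO overlapped. The group level was 1429 ± 56.1 RPM (SD, n = 2) in Dnmt1 KO. It was 106 ± 80.5 RPM (SD, n = 4) in the double knockout and 19.1 ± 22.6 RPM (SD, n = 6) in WT. In these bulk samples, more cells with the miRNAs and more of them per cell cannot be told apart.

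**Figure D1:**
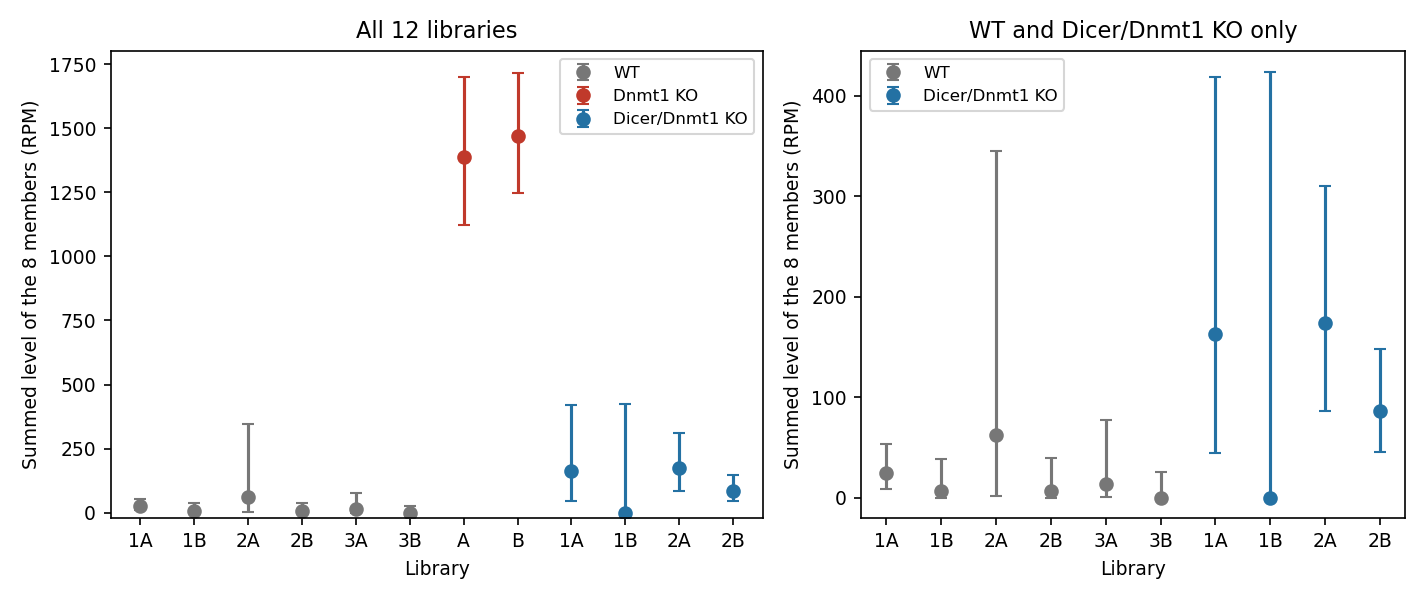
Summed level of the 8 members in RPM (y axis) in each library (x axis), with 95% exact Poisson intervals for counting error as bars. Left, all 12 libraries. Right, WT and Dicer/Dnmt1 KO on their own scale. Dnmt1 KO A and B sit at 1389 and 1468 RPM, above the other 10 libraries, which reach 173 RPM at most.

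Pooled over libraries, the cluster's level in Dnmt1 KO was 110 times that in WT (252 against 10 reads, 95% exact interval 58.6 to 231 for counting error only). It was 12.7 times that in Dicer/Dnmt1 KO (252 against 28 reads, 8.58 to 19.5). Between Dicer/Dnmt1 KO and WT the pooled ratio was 8.63 (28 against 10 reads, 4.07 to 19.9), but the libraries of these groups overlapped. The overlap came from Dicer/Dnmt1 KO 1B, where a count of 0 allows up to 344 RPM. Dicer/Dnmt1 KO 1A, 2A and 2B, at 163, 173 and 86.3 RPM, lay above the highest WT value, 62.0 RPM from 1 read. On the scale of log2(TMM-scaled RPM + 10), which understates changes of low features, the summed level differed by 6.12 ± 1.16 (SE) between Dnmt1 KO and WT. Dicer/Dnmt1 KO differed from Dnmt1 KO by -5.02 ± 1.24 (SE) and from WT by 1.10 ± 0.92 (SE). This last value was 2.195 ± 0.415 with A and B of each culture summed and 1.96 ± 0.77 without Dicer/Dnmt1 KO 1B, the library with no member read, so its size relative to its error depends on that library and on the summing.

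Only Mir470, Mir871 and Mir881 passed the filter of the model fitted across all features (111 RPM in 2 libraries and 15 reads in total). They passed through their level in Dnmt1 KO, so the filter itself favoured a difference. In limma, 3 of these 3 were above the threshold (adjusted p of 0.05 over 683 features) as higher in Dnmt1 KO than in WT, where 6.59% of all tested features were higher. As lower when Dicer was also deleted it was again 3 of 3, where 21.7% of all tested features were lower. As higher in Dicer/Dnmt1 KO than in WT it was 0 of 3 (also 0 unadjusted and 0 with voom weights), where 5.12% of all tested features were higher. The members were selected on these contrasts, so nothing is read from the counts. Mir470 fell below the threshold against WT without Dnmt1 KO A or without Dnmt1 KO B, which left 2 of 3, and against Dicer/Dnmt1 KO without A. The 3 comparisons share libraries and are not independent.

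Mir470, the most upstream member, was the most abundant. It held 54 and 65 reads in Dnmt1 KO A and B, or 798 and 604 RPM. In WT it was seen in 3 of 6 libraries, with 3 reads in 1A and 1 read each in 1B and 2A, a median of 3.45 RPM and a highest value of 62.0 RPM. In Dicer/Dnmt1 KO it held 4, 0, 5 and 2 reads (1A, 1B, 2A, 2B), or 163, 0, 78.8 and 13.3 RPM. Both Dnmt1 KO values lay above all 10 others, and those of WT and Dicer/Dnmt1 KO overlapped. The pooled level in Dnmt1 KO was 104 times that in WT (43.2 to 325) and 15.3 times that in Dicer/Dnmt1 KO (8.23 to 31.4). In limma the log2 difference was 5.56 ± 1.08 (SE) from WT to Dnmt1 KO.

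Mir871, the member that shares its 5p seed with Mir743, came second. It held 19 reads in Dnmt1 KO A and 60 in B, or 281 and 558 RPM, the widest gap between A and B among the members with over 10 reads. WT held 2, 1 and 1 reads in 1A, 2B and 3A and none in the other 3 libraries, with a highest value of 13.9 RPM. Dicer/Dnmt1 KO held 1 read in 2A and 8 reads in 2B, or 15.8 and 53.1 RPM, and none in 1A and 1B. The groups did not overlap between Dnmt1 KO and the rest. The pooled level in Dnmt1 KO was 85.9 times that in WT (32.3 to 323) and 12.4 times that in Dicer/Dnmt1 KO (6.20 to 28.1), with a limma log2 difference from WT of 5.24 ± 0.75 (SE).

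Mir881 had no read in any of the 6 WT libraries, which together allow up to 3.93 RPM. Dnmt1 KO A and B held 13 and 21 reads, or 192 and 195 RPM, nearly the same level. Dicer/Dnmt1 KO held 2 reads in 2A and 2 in 2B, or 31.5 and 13.3 RPM, and none in 1A and 1B. The pooled level in Dnmt1 KO was 49.3 times the limit for WT, the 3 reads that a count of 0 allows over the whole group. With counting error in both groups, the exact lower bound of the ratio to WT was 38.0. The pooled level in Dnmt1 KO was 11.99 times that in Dicer/Dnmt1 KO (4.28 to 46.5). The limma log2 difference from WT, 4.75 ± 0.57 (SE), depends on the pseudocount because WT is at 0.

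The other 5 members stayed under the filter. Mir878 held 4 and 8 reads in Dnmt1 KO (59.1 and 74.3 RPM), 1 read in WT 1A and 2 reads in Dicer/Dnmt1 KO 2A. Its pooled ratio of Dnmt1 KO to WT was 52.2 with a wide interval (7.72 to 2232), and to Dicer/Dnmt1 KO 8.47 (1.88 to 77.9). Mir741 was read in Dnmt1 KO only, with 3 reads in A and 2 in B (44.3 and 18.6 RPM). Its pooled level there was 7.25 times the same limit for WT, and the exact lower bound of the ratio was 3.99. Mir463 gave 1 and 2 reads in Dnmt1 KO and 1 read in Dicer/Dnmt1 KO 2B. Mir743 gave 1 read, in Dicer/Dnmt1 KO 2A, and Mir880 gave none in the 12 libraries. No ratio is given for these 3, which were within the 3 reads that a count of 0 allows in every group. For Mir743 and Mir880 the 2 Dnmt1 KO libraries together allow up to 17.1 RPM, well under the 194 RPM of Mir881 pooled over the same libraries.

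**Figure D2:**
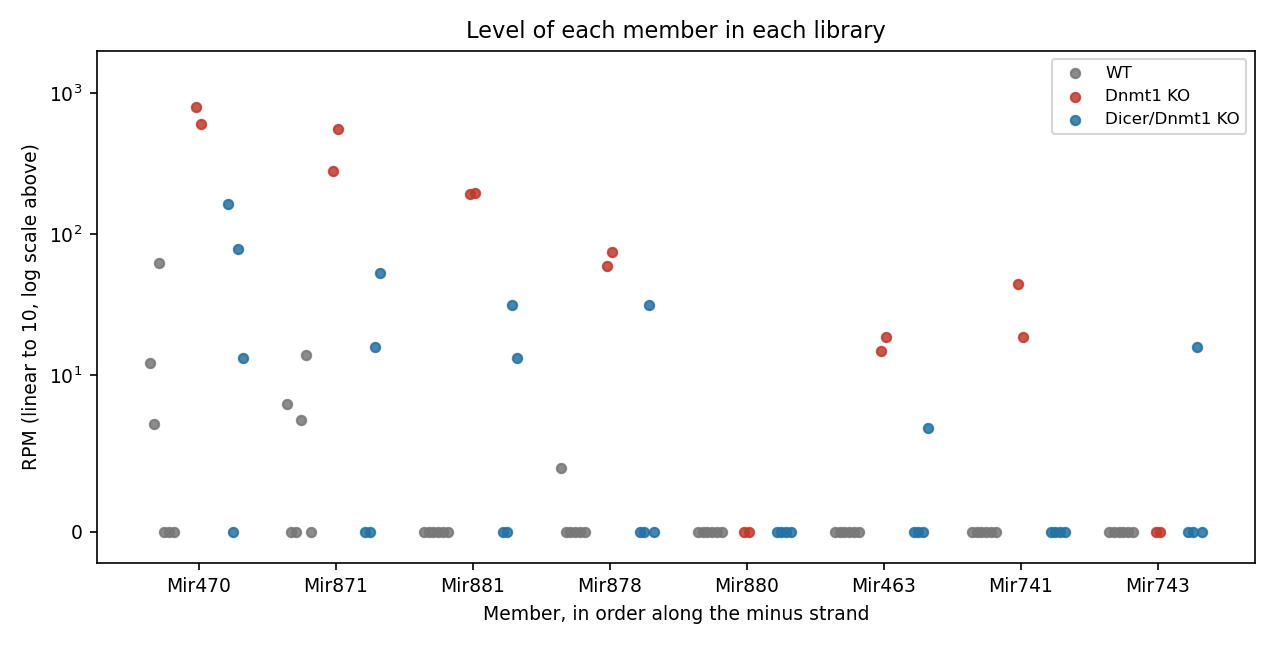
RPM of each member (y axis, linear to 10 RPM and a log scale above) by genotype, 1 point per library, with members ordered along the minus strand from Mir470 on the left (x axis). The Dnmt1 KO points are above all others for Mir470, Mir871, Mir881 and Mir878. Those of Mir463 and Mir741 rest on 1 to 3 reads each. The members were chosen with these levels known, and the share of all features that separate this way is not given. Nothing is therefore read from the separation. Points at the base are libraries with 0 reads.

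The members contributed very unequally. In Dnmt1 KO, Mir470, Mir871 and Mir881 together held 232 of 252 reads (92.1%). Mir470 took 47.2% (95% exact interval 40.9 to 53.6), Mir871 31.3% (25.7 to 37.5) and Mir881 13.5% (9.53 to 18.3). The balance of the first pair differed between the libraries. Mir470 was 57.4% of the cluster in A (46.8 to 67.6) and 41.1% in B (33.4 to 49.2), while Mir871 was 20.2% in A (12.6 to 29.8) and 38.0% in B (30.4 to 46.0). The intervals of Mir871 did not overlap, and those of Mir470 met at their ends. Mir881 kept 13.8% and 13.3%.

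The few reads of the other groups gave wide shares. In Dicer/Dnmt1 KO pooled, Mir470 was 39.3% of 28 reads (21.5 to 59.4), Mir871 32.1% (15.9 to 52.4) and Mir881 14.3% (4.03 to 32.7), and each interval includes the Dnmt1 KO share. The libraries differed, since Mir470 held all 4 reads of 1A, whereas in 2B Mir871 held 8 of 13 reads (61.5%, 31.6 to 86.1) and Mir470 2 (15.4%, 1.92 to 45.4). In WT, Mir470 was 5, Mir871 4 and Mir878 1 of 10 reads. The absence of Mir881 there, 0 of 10 reads, has an upper 95% exact bound of 30.8%, so it is compatible with a share like that in Dnmt1 KO.

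Among the 8 members, reads declined with distance from Mir470. In Dnmt1 KO the summed reads went from 119 (Mir470) to 79 (Mir871) and 34 (Mir881), then 12 (Mir878), 0 (Mir880), 3 (Mir463), 5 (Mir741) and 0 (Mir743). Spearman's rho between distance and reads over the 8 members was -0.87 in A and -0.89 in B. These are 8 genes in 1 culture, given as a description. Mir880 and Mir741 broke the order. Mir880 lies between Mir878 and Mir463 and had no read, and Mir741 lies downstream of Mir463 but had more reads (5 against 3). The other annotated miRNAs of the locus, described below, are left out of this order, and it does not hold with them. Upstream of Mir470, Mir465 had 2 reads in Dnmt1 KO and the other miRNAs there had none. Mir743b, 36.7 kb downstream, had 3 reads, more than Mir880 or Mir743. Also downstream, Mir471 had 1 read, and Mir742, Mir883a and Mir883b had none.

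**Figure D3:**
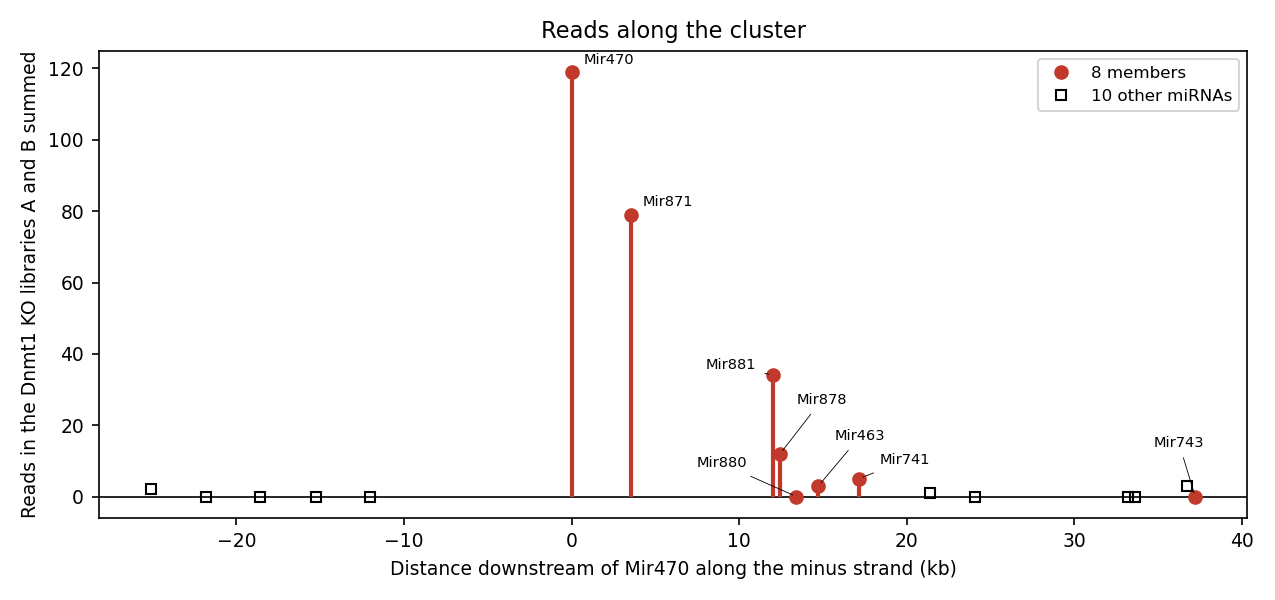
Reads in Dnmt1 KO A and B summed (y axis) against distance from Mir470 in the direction of transcription in kb (x axis), with the 8 members as filled points and the 10 other annotated miRNAs of the locus as open squares. Reads go from 119 at Mir470 to 34 at Mir881, and no open square is above 3 reads.

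A further 10 annotated miRNAs lie within 200 kb of the members, all of them on the minus strand, 5 inside the span of the cluster and 5 upstream of it. They were taken by position, but are what is left of the window after the members, which were chosen with their levels known. In all, 7 of 10 had no read in any library (Mir742, Mir883a, Mir883b, Mir465c-1, Mir465b-1, Mir465c-2 and Mir465b-2). The last 4 are near-identical copies, with a mature arm that matches 5 places in the genome. Mir465 carries the same 3p arm, so a read of that arm cannot be assigned to 1 of these genes. How the authors placed reads with several positions is not stated. Mir743b, whose 3p seed equals that of Mir743, gave 3 reads in Dnmt1 KO B. Mir471 gave 1 read in Dnmt1 KO A, and Mir465 gave 2 reads in Dnmt1 KO A and 1 read in Dicer/Dnmt1 KO 1B.

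Summed, these neighbours held 44.3 and 27.9 RPM in Dnmt1 KO A and B and 0 in all 6 WT libraries. In Dicer/Dnmt1 KO, 3 libraries were at 0, and 1B held 115 RPM from its single read. The difference of means between Dnmt1 KO and WT was 36.1 RPM, with an exact two-sided permutation p of 0.0357, the smallest that 2 against 6 libraries can give, and 0.107 after Benjamini-Hochberg adjustment over 3 comparisons. Dicer/Dnmt1 KO differed from WT by 28.7 RPM (exact permutation, adjusted p = 0.6) and from Dnmt1 KO by -7.40 RPM (exact permutation, adjusted p = 1). With TMM factors these differences were 14.7 and -33.8 RPM, and with A and B summed 15.1 and -19.2 RPM. The difference from Dnmt1 KO turned positive without Dnmt1 KO A or without any one of Dicer/Dnmt1 KO 1A, 2A and 2B. None of the 3 passed the threshold, and 2 against 4 libraries cannot go below 0.0667. The neighbours together gave 6 reads in Dnmt1 KO, against 252 for the members, a contrast that the choice of the members partly sets.

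Since miRNAs as a whole were lower in Dicer/Dnmt1 KO, the members were also set against all miRNA reads. They made up 0.213% of the miRNA reads in Dnmt1 KO A (95% exact interval 0.172 to 0.260) and 0.235% in B (0.200 to 0.274). In Dicer/Dnmt1 KO the shares were 0.143% in 1A (0.0390 to 0.366), 0% in 1B (upper bound 0.655), 0.179% in 2A (0.0892 to 0.319) and 0.123% in 2B (0.0657 to 0.211). The Dicer/Dnmt1 KO libraries with reads were below the Dnmt1 KO libraries, but the intervals overlapped. In WT no library passed 0.00894%.

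**Figure D4:**
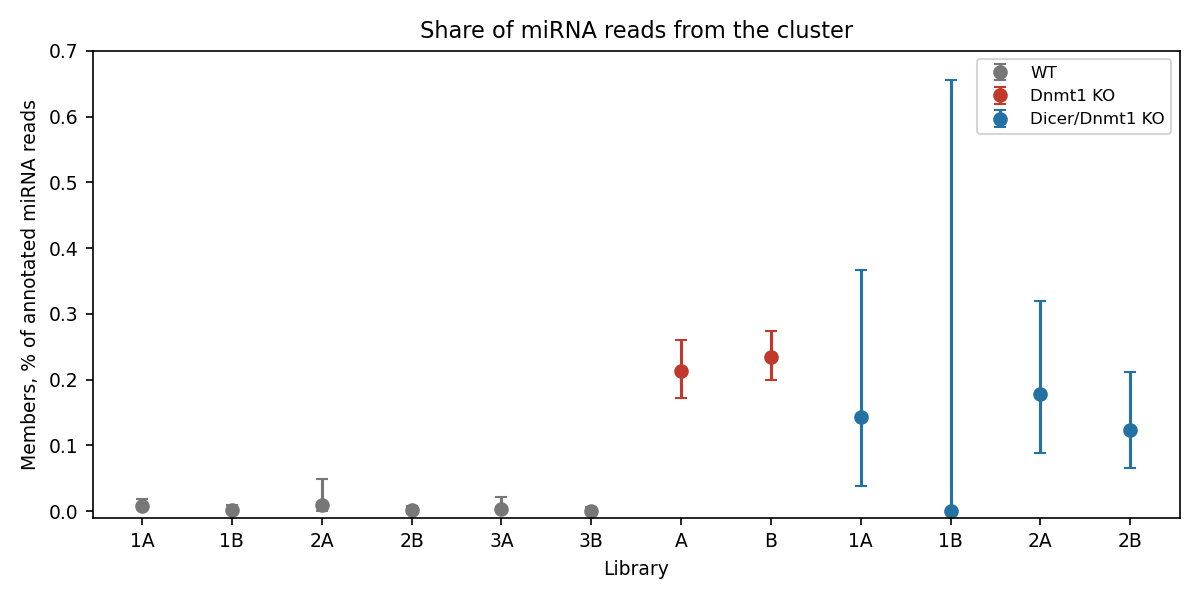
Members as a percentage of annotated miRNA reads (y axis) in each library (x axis), with 95% exact binomial intervals as bars. WT lies at or below 0.00894%, Dnmt1 KO at 0.213% and 0.235%, and the Dicer/Dnmt1 KO libraries with reads between 0.123% and 0.179%.

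By share, the pooled ratio of Dnmt1 KO to Dicer/Dnmt1 KO was 1.62 (1.09 to 2.48, counting error only), in place of 12.7 by RPM. The share in Dicer/Dnmt1 KO was 40.0 times that in WT (18.9 to 92.3). Against the Mir290 to Mir295 cluster, whose pooled level in Dnmt1 KO was 38.2 times that in Dicer/Dnmt1 KO, the direction turned. There were 19.8 member reads per 1000 reads of that cluster in Dnmt1 KO and 59.7 in Dicer/Dnmt1 KO, against 0.182 in WT. In limma, 7 of 7 of its miRNAs were lower in the double knockout than in Dnmt1 KO, and 0 of 7 passed between Dnmt1 KO and WT (1 of 7 at an unadjusted p under 0.05, and 0 of 7 with voom weights).

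Of the miRNAs known from fibroblasts, the cells used as feeders for ESCs, Mir143 was higher in both knockout groups. Of 7 listed, 6 were in the table, and Mir143 and Mir10b passed the filter. Their summed level was 979 to 5390 RPM in WT, 7462 to 9014 RPM in Dnmt1 KO and 5581 to 17453 RPM in Dicer/Dnmt1 KO. Mir143, a miRNA of smooth muscle and fibroblasts, made up most of it in both knockout groups, at 333 to 1115 RPM in WT, 5319 and 6961 RPM in Dnmt1 KO and 4393 to 14883 RPM in Dicer/Dnmt1 KO. Its log2 difference from WT was 3.63 ± 0.70 in Dnmt1 KO (SE, limma adjusted p = 0.00506) and 2.95 ± 0.55 in Dicer/Dnmt1 KO (SE, limma adjusted p = 0.000900). Mir10b did not pass, with log2 differences from WT of 1.23 ± 0.99 in Dnmt1 KO (SE, limma adjusted p = 0.569) and -0.34 ± 0.78 in Dicer/Dnmt1 KO (SE, limma adjusted p = 0.838). Other defining fibroblast miRNAs had few reads, with 18 of Mir145, 0 of Mir199a-1, 1 of Mir199a-2 and 16 of Mir214 over the 12 libraries. Most reads of Mir145 and Mir214 were in the knockout libraries. Mir145 had 4 reads in WT 2B, 2 and 5 in Dnmt1 KO A and B, and 4 and 3 in Dicer/Dnmt1 KO 2A and 2B. Mir214 had 1 read in WT 3B, 1 and 5 in Dnmt1 KO A and B, and 2, 6 and 1 in Dicer/Dnmt1 KO 1A, 2A and 2B. Between Dnmt1 KO and Dicer/Dnmt1 KO the pooled ratio of the list was 0.925, against 12.7 for the members. The list's part in the level of the members was not tested. It made up 11.2% of miRNA reads in Dicer/Dnmt1 KO and 1.32% in Dnmt1 KO, which touches the shares above.

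No other germline feature of the lists passed as higher in Dnmt1 KO than in WT, and nearly all had too few reads to be tested. Among 6 testis miRNAs elsewhere in the genome, Mir34c was the one that passed the filter. Mir34c, which is expressed in spermatocytes but also outside the germline, held 22 reads each in Dnmt1 KO A and B and differed from WT by 0.76 ± 0.56 (SE, limma adjusted p = 0.522). It was lower in Dicer/Dnmt1 KO than in WT by a log2 difference of -1.77 ± 0.44 (SE, limma adjusted p = 0.00758). Mir449b and Mir202 had no read. Of 10 germline genes known to be under DNA methylation, 4 had any read, with 2 reads in all in Dnmt1 KO, both in Sycp1, a component of the meiotic synaptonemal complex. The germ cell markers Dazl, Ddx4, Mael and Sycp3 had 0 reads in Dnmt1 KO. Reads of 20 to 24 nt do not measure mRNA levels, so this does not show that the genes were silent. The X-linked coding genes Slitrk2, Fmr1, Fmr1nb and Aff2 held 10 reads in all over the 12 libraries.

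The tested features elsewhere in the genome whose pattern over the 12 libraries was most like that of the summed members were Mir410, Mir540, Mir541, Mir381 and Mir134, with Pearson's r of 0.92, 0.91, 0.90, 0.90 and 0.89 on the log2 scale. All 5 are miRNAs of the Dlk1-Dio3 imprinted domain on chromosome 12. The points share libraries and depth, and r is given as a description. Mir541 held 5186 and 5334 RPM in Dnmt1 KO, at most 14.3 RPM in WT and 0 to 757 RPM in Dicer/Dnmt1 KO. Mir410 held 2261 and 2565 RPM in Dnmt1 KO, at most 62.0 RPM in WT and 115 to 599 RPM in Dicer/Dnmt1 KO. Mir134 held 0 reads in every WT library, as Mir881 did, with 18 and 19 reads in Dnmt1 KO A and B. Of the members themselves, Mir470 had an r of 0.97 with the sum to which it contributes, Mir881 0.89 and Mir871 0.84.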

How the data were processed

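Small RNA-seq libraries of ESCs were compared between 3 genotypes taken from the labels. From the submitters' processing notes and the paper's methods, the authors trimmed reads (Trim Galore 0.3.5), kept 20 to 24 nt, mapped them with Bowtie2 2.2.6 to NCBIM37 and counted overlaps with annotated features in SeqMonk. The deposited values were log2 RPM, in which a feature without reads carries 0.9 read. Dividing each column by its minimum on this basis gave whole reads (within 0.02) for 100.0% of values in all 12 columns, and with them the library reads. A further 89 value columns belong to no sample here and were not used.

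The 8 members and all lists were chosen with earlier results of these data known. The named genes were the members, all other miRNAs within 200 kb, the listed reference genes and the 5 tested features over 1 Mb away most correlated with the summed members. Gene types came from an annotation on NCBIM37. Levels are RPM. Tests used limma 3.58.1 under R 4.3.3, with a trended prior variance, on log2(RPM + 10), scaled by TMM factors (trimmed means, 30% of the ratios and 5% of the abundances left out), in 1 fit of 12 libraries and 683 features, with Benjamini-Hochberg adjustment at 0.05. A count test was not run because the deposited unit is log2. Neighbouring miRNAs were compared by exact permutation (R). Intervals are 95% exact and cover counting error only, since reads carry no molecular identifiers. The limma script was tested on simulated data.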

Additional observations from a re-analysis of the deposited data

Results flagged for a closer look

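Within WT (n = 6) and Dicer/Dnmt1 KO (n = 4), 6 values stood apart from the rest of their group by Dixon's criterion, and each rested on 1 or 2 reads. They were Mir470 in WT 2A (62.0 RPM, 1 read of the shallowest WT library), Mir878 in WT 1A (4.08 RPM, 1 read), Mir878 in Dicer/Dnmt1 KO 2A (31.5 RPM, 2 reads), Mir463 in Dicer/Dnmt1 KO 2B (6.64 RPM, 1 read), Mir743 in Dicer/Dnmt1 KO 2A (15.8 RPM, 1 read) and the summed neighbouring miRNAs in Dicer/Dnmt1 KO 1B (115 RPM, 1 read of the shallowest library). In 5 of the 6, the other libraries of the group were at 0, where any read in a single library meets the criterion, so the rate of about 1 in 20 groups that chance gives for continuous values does not hold for these counts.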

How the results depend on the processing

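With 10 reads of the members in WT, 28 in Dicer/Dnmt1 KO and 1 Dnmt1 KO culture, depth limits every value. Without a filter, which tested 14232 features and 7 members, 5 members passed in both comparisons with Dnmt1 KO (the same 3 with Mir741 and Mir878). Of all 14232 features, 41 were called in that fit between Dnmt1 KO and WT, and 134 between Dicer/Dnmt1 KO and Dnmt1 KO. With a pseudocount of 1 RPM, Mir470 did not pass in either of these comparisons. A pseudocount of 50, both other scalings, voom weights, leaving out E14 2, summing A and B and the random block left the counts of members called at 3, 0 and 3, although summing A and B moved the summed level between Dicer/Dnmt1 KO and WT from 1.10 to 2.195 (log2), and leaving out Dicer/Dnmt1 KO 1B moved it to 1.96. Scaled to miRNA reads, chosen after seeing the data, the summed level differed by 3.47 between Dicer/Dnmt1 KO and WT and by -2.41 between Dicer/Dnmt1 KO and Dnmt1 KO (log2). Leaving out 1 library each, the neighbours' difference ran from 0 to 38.3 RPM between Dicer/Dnmt1 KO and WT (0 without Dicer/Dnmt1 KO 1B) and from -36.1 to 2.17 RPM between Dicer/Dnmt1 KO and Dnmt1 KO, with 0.823 RPM without Dnmt1 KO A. Each leave-one-out fit without a Dnmt1 KO library assumes that the lone library varies like the other groups, as does the fit on A and B summed. Features called between Dnmt1 KO and WT, 47 here, were 31 with a pseudocount of 1, 30 with culture as a random block, 24 with A and B summed, 80 with voom weights, 168 without E14 2, and 21 to 97 without 1 library (22 without Dnmt1 KO A, 21 without B, 97 without WT 2A). With library reads alone, 42.0% of calls between Dicer/Dnmt1 KO and WT were higher, against 21.2%, and 15.9% against 5.13% between Dicer/Dnmt1 KO and Dnmt1 KO, and the median log2 difference of all tested features moved from -0.09 to 0.61 and from -0.16 to 0.75. For the labels 1A, 1B, 2A and 2B shared by WT and Dicer/Dnmt1 KO, deviations from the group means correlated at -0.23, 0.11, -0.17 and -0.29, no library correlated best with its own label, and the numbers were not taken to pair the libraries. With them as a block, 0 members passed and 124 features were called. With the letter as a block, 3 members passed in each comparison with Dnmt1 KO. Of 683 features, 39 were then called between Dnmt1 KO and WT, and 154 between Dicer/Dnmt1 KO and Dnmt1 KO. The cause of these changes was not tested.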
